A study of Mus musculus with 12 samples.

Results

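The 10 genes described here encode reelin (Reln), its receptors (Vldlr and Lrp8) and its intracellular adaptor (Dab1), together with 6 genes of the Cajal-Retzius cells that secrete reelin (Trp73, Lhx1, Lhx5, Ebf2, Ebf3 and Ndnf). They were chosen by name for their known roles, not by any measured value, from 23513 genes counted by single nucleus RNA sequencing (snRNAseq) in the cortex of C57BL/6J mouse embryos at embryonic day 14. Pregnant dams had received saline or ethanol (EtOH, 2.5 g/kg i.p.) once a day, 6 times in all, from embryonic day 8.5, to ask how prenatal alcohol exposure changes the cell types of the developing cortex. Of 5 saline embryos, S1-1 and S1-2 were littermates from dam S1, and S2-1, S2-2 and S2-4 from dam S2. Of 6 EtOH embryos, E1-1 and E1-2 shared dam E1, and E2-1 to E2-4 shared dam E2. Batch 1 held the litters of S1 and E1, and batch 2 the others. Saline embryo S2-3 had no counts available here and was not analysed. The authors state that they removed 1 saline sample, which they do not name, because its cells were spread differently over the clusters. No genetic modification is named for any group, and with 2 litters per treatment a difference between litters can enter any difference between treatments. The level of a gene is given as CPM, counts scaled by the sum over genes, from its unique molecular identifiers (UMIs) in all nuclei that 1 embryo had in a cluster, relative to all UMIs of those nuclei. The nuclei fell into 25 clusters. Their numbers and names are the authors', and the embryo is the replicate.

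Reelin is a large secreted glycoprotein of the marginal zone, the outermost layer of the embryonic cortex, where it is released mainly by Cajal-Retzius cells. It binds VLDLR and LRP8 (also called ApoER2) on migrating neurons and radial glia, Src family kinases then phosphorylate DAB1, and the signal guides neurons to their layer until phosphorylated DAB1 is degraded. Mice without Reln, without Dab1, or without both receptors have disordered cortical layers. Cajal-Retzius cells arise at the borders of the cortex, among them the cortical hem, the septum and the thalamic eminence. Trp73, which encodes the p53 relative p73, marks those from the hem and other medial sources, and Lhx1, Lhx5, Ebf2 and Ebf3 encode transcription factors found in them. Ndnf encodes a secreted factor made by Cajal-Retzius cells and, later, by layer 1 interneurons.

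The genes differ widely in length (coordinates are of the mm10, GRCm38, build). Dab1 spans 1125 kb of chromosome 4 (103619359 to 104744844, plus strand) and Reln spans 460 kb of chromosome 5 (21884454 to 22344702, minus strand). Lhx1, at 7.25 kb on chromosome 11 (84518284 to 84525535, minus strand), and Lhx5, at 9.53 kb on chromosome 5 (120431699 to 120441223, plus strand), are the shortest. Because nuclear RNA holds introns, long genes can collect more UMIs, and levels are therefore compared between clusters and embryos for 1 gene and never between genes. The strand used in counting is not given in the sources used here, so reads of a gene and of an overlapping gene on the other strand may not be told apart. Such a partner was counted for Reln (Gm10475 and Gm16110), Lrp8, Trp73, Lhx5, Ebf2 and Ebf3. The partner of Lhx5, Gm27199, overlaps its start and had UMIs amounting to 52.6% of those of Lhx5, and Lrp8os2 had 20.4% of those of Lrp8, against 1.99% for Gm10475 and Reln.

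The regions around the transcription starts of 3 of the genes highest in Cajal-Retzius cells are printed to show where their expression begins. Each runs from 250 bases before to 50 bases after a RefSeq start (GRCm38.p6), 5′ to 3′ on the strand of the gene. Capitals mark CCCNNGGG, the core of the palindrome bound by EBF proteins, read on both strands since it is its own reverse complement. It was looked up because Ebf2 and Ebf3 are among the 10 genes.
Reln, chr5:22344656-22344955, minus strand: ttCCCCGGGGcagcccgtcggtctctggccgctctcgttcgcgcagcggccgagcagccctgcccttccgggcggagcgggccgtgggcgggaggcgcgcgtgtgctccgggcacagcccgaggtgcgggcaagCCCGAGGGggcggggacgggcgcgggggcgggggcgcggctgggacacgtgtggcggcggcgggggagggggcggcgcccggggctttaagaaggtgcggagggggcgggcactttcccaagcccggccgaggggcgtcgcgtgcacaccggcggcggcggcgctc
Ebf3, chr7:137314396-137314695, minus strand: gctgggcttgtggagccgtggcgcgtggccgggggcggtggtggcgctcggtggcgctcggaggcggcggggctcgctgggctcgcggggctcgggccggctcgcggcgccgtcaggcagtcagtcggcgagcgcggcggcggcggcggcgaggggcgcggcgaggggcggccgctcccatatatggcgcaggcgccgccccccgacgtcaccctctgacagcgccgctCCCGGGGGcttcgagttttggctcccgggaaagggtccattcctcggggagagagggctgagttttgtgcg
Trp73, first start, chr4:154139826-154140125, minus strand: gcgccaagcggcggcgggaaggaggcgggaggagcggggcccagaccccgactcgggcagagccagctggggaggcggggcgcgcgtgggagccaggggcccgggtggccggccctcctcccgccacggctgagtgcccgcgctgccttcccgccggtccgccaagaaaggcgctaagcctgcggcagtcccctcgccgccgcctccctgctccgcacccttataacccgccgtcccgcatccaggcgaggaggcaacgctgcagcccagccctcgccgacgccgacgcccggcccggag
The Reln sequence held the core at bases 3 and 135 and the Ebf3 sequence at base 230, while the Trp73 sequence held none. Among all 32851 promoters of this length, 13.7% held the core, and 3 of the 12 entries for the 7 genes with a sequence did (Reln, Ebf3 and 1 of 3 for Lrp8). TAATTA, the core read by many homeodomain proteins, was in 5.29% of all promoters and in 1 of the 12 (Vldlr). GC content was 80.7% for Reln, 77.0% for Ebf3 and 77.7% for Trp73, above the upper quartile of all promoters (61.7%). These are matches of letters and say nothing about binding.

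Saline embryos held 4437 to 7639 nuclei with 4.40e+07 to 8.31e+07 UMIs in all, and EtOH embryos 2346 to 4928 nuclei with 1.41e+07 to 3.80e+07 UMIs in all. The median number of UMIs per nucleus was 6325 to 9051 in saline and 4071.5 to 6911 in EtOH embryos, so the EtOH nuclei were also shallower, and shares of nuclei with a UMI are compared after thinning. Of 50226 barcode sequences, 314 occurred in more than 1 library. S2-1 and S2-2 stood apart from the other saline embryos in the level of several of the 10 genes, and values without them are given where they change a call. With several embryos per litter, p-values treat littermates as independent.

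Cluster 14, which the authors named Layer I, is the cluster of Cajal-Retzius cells. It held 1289 nuclei, between 100 and 242 per saline embryo and between 57 and 102 per EtOH embryo. Of 11 Cajal-Retzius markers, 8 had their highest level there, Ebf2 and Calb2 were second (after Cluster 25 and Cluster 24) and Tbr1, which projection neurons share, was the third. Clustering used the expression of these genes, so this checks the name and is no test. The cluster made up 2.86% ± 1.52 of the nuclei of saline embryos (SD, n = 5) and 2.45% ± 0.512 of those of EtOH embryos (SD, n = 6). The saline mean was raised by S2-2 at 5.45%, the other saline embryos had 1.82% to 3.01%, and the EtOH embryos 1.97% to 3.36%. The difference of -0.415 percentage points was within the spread between embryos (two-sided exact permutation test, p = 0.675), and without S2-2 it was 0.233.

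Reln, the ligand, was far higher in Cluster 14 than elsewhere. Its level there was 10477 ± 2753 CPM (SD, n = 11), ranging from 5662 in S2-1 to 14519 in E1-1. Cluster 24 (PN 2, a small projection neuron cluster) followed with 2130 ± 614 CPM (n = 10) and Cluster 25 (PN 3) with 697 ± 64.1 (n = 7). Each of these gaps was larger than the SD of either neighbour, while the next clusters in order (19 at 573, 23 at 548, 7 at 439 and 11 at 400 CPM) did not differ from their neighbours beyond the SD. Cluster 19 is a neuronal cluster of unknown type, and Clusters 23 and 7 are interneurons (migrating interneurons and Int 1). The lowest levels were in clusters classed as radial glial cells (RGCs), 56.3 CPM in Cluster 2, 54.9 in Cluster 3 and 51.1 in Cluster 12. Over the whole order, only 3 of 24 neighbouring pairs of clusters differed by more than the larger SD. Cluster 14 held 59.6% of all Reln UMIs in 2.64% of the nuclei of an average embryo.

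A Reln UMI was seen in 88.4% of Cluster 14 nuclei, which had a median of 9621 UMIs, and in 25.3% of nuclei of Cluster 12 (non-mitotic RGC), which had a median of 4934. No cluster lacked Reln UMIs, so no background share from free RNA could be set for Reln, and the part of free RNA in its low levels was not tested. The 5 genes with levels most like those of Reln over the 25 clusters, by Pearson's r of log2(mean CPM + 1) among 9250 genes, were Gm10475 (r = 0.979), Samd3 (0.814), 5330417C22Rik (0.781), Calb2 (0.780) and Cdc42bpb (0.774). Gm10475 lies inside Reln on the other strand. Calb2 encodes calretinin, a calcium-binding protein long used to stain Cajal-Retzius cells.

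**Figure D1:**
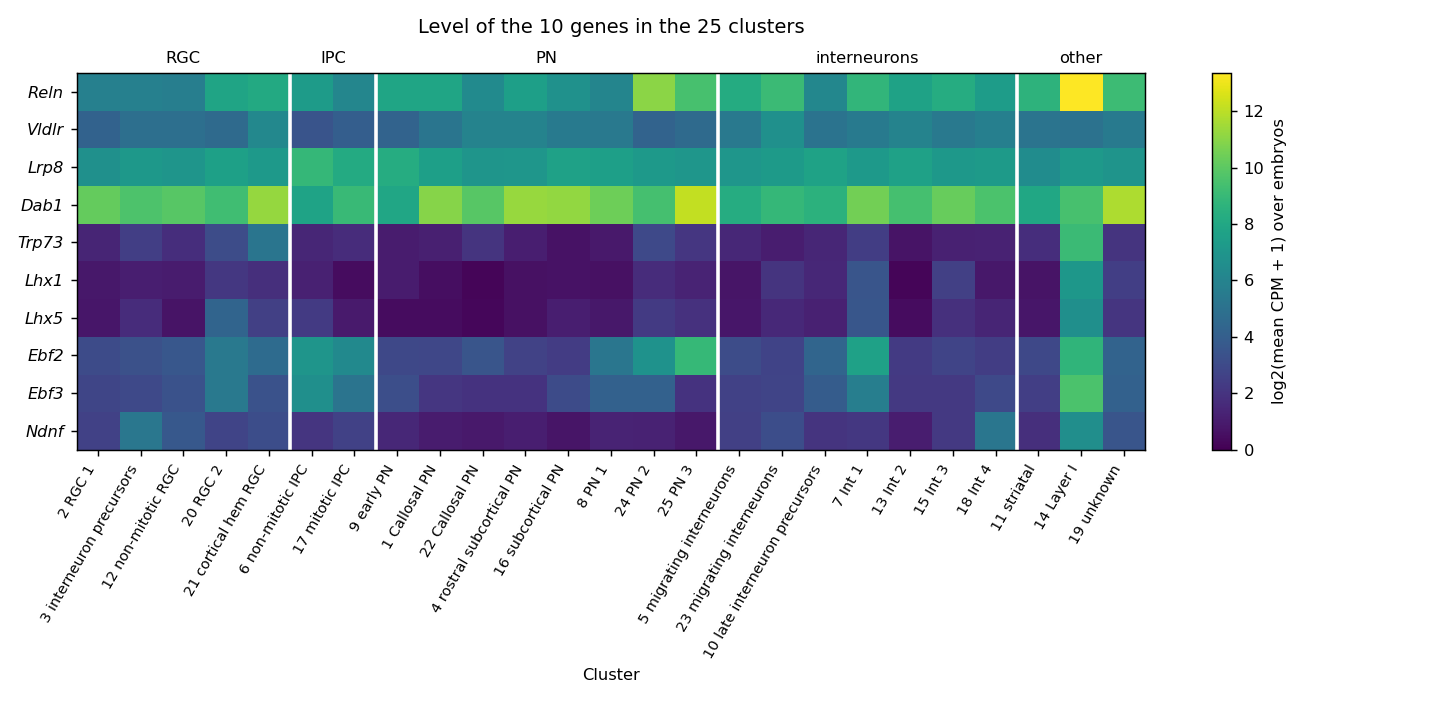
Each cell gives log2(mean CPM + 1) over embryos of 1 of the 10 genes (rows) in 1 of the 25 clusters (columns, grouped as RGC, intermediate progenitors or IPC, projection neurons or PN, interneurons and other). Reln, Trp73, Lhx1, Lhx5, Ebf3 and Ndnf are brightest within their own row in Cluster 14, while Dab1 is brightest in Cluster 25 and Lrp8 in Cluster 6; brightness should not be compared between rows.

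The receptors showed different patterns, and neither was highest in Cluster 14. Lrp8 was highest in intermediate progenitors (IPCs) and new neurons, with 473 ± 85.0 CPM in Cluster 6 (non-mitotic IPC), 305 ± 53.1 in Cluster 9 (early PN) and 288 ± 25.3 in Cluster 17 (mitotic IPC), each n = 11. The gap below Cluster 6 and the gap below Cluster 17 were larger than the SDs, and that between Clusters 9 and 17 was not. Lrp8 was lowest in Cluster 2 (RGC 1), at 105 CPM, and in striatal Cluster 11, at 89.4 CPM. Vldlr was lowest in the IPC clusters, at 9.93 CPM in Cluster 6 and 15 in Cluster 17, and low in Cluster 2 (17.4), where Lrp8 was low too. It was highest in Cluster 23 (102 ± 39.9 CPM, n = 10) and Cluster 21 (cortical hem RGC, 75.3 ± 20.8, n = 10). None of the 24 neighbouring pairs in the Vldlr order differed beyond the SD. Over the 25 clusters the log2 levels of Vldlr and Lrp8 had a Pearson's r of -0.457, given as a description of clusters that share libraries.

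Dab1, the adaptor that receptor-bearing cells use, was highest in Cluster 25 (PN 3, 4511 ± 593 CPM, n = 7) and in unknown Cluster 19 (3327 ± 349, n = 11). It then ran through the subcortical projection neurons of Cluster 4 (2503 ± 132), the hem RGCs of Cluster 21 (2386 ± 513) and Cluster 16 (2314 ± 341), which did not differ from one another beyond the SD. The lowest levels were in the early projection neurons of Cluster 9 (234 CPM) and the IPCs of Cluster 6 (214 CPM), where Lrp8 was highest. Cluster 14 held only 1.90% of Dab1 UMIs, 2.94% of Vldlr UMIs and 2.64% of Lrp8 UMIs. The genes most like Dab1 over the clusters were Iqsec2 (r = 0.808), Syt9 (0.798), Lpcat2 (0.766), Anxa7 (0.761) and Wdr66 (0.747).

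Trp73 was the member most concentrated in Cluster 14. Its level there was 542 ± 164 CPM (SD, n = 11), against 35.4 ± 24.1 in Cluster 21 (cortical hem RGC, n = 10) and 7.68 ± 12.7 in Cluster 20 (RGC 2, n = 9), where E1-1 had 40.8 CPM from 6 UMIs and the other 8 embryos a mean of 3.54. Of all its UMIs, 86.2% lay in Cluster 14. A Trp73 UMI was found in 66.2% of Cluster 14 nuclei and 12.9% of Cluster 21 nuclei, but in at most 3.23% of nuclei of the other clusters and in 0.613% of interneurons of Cluster 13 (median 6789.5 UMIs), which should lack it. The genes most like Trp73 were Ggt5 (r = 0.914), Gmnc (0.881), Mcidas (0.874), Slc7a10 (0.848) and Sipa1l3 (0.843). Gmnc and Mcidas encode related nuclear proteins of the geminin family that act in multiciliated cells, and Gmnc is also known in hem-derived Cajal-Retzius cells.

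Lhx1 and Lhx5, LIM homeobox genes, had levels of 132 ± 27.2 and 99.8 ± 10.9 CPM in Cluster 14 (n = 11). Outside it, Lhx1 reached 10.6 CPM in Cluster 7 (Int 1), and Lhx5 18.5 in Cluster 20 and 10.7 in Cluster 7. Their levels over the clusters were the most alike of any 2 of the 10 genes (r = 0.912). Cluster 14 held 64.1% of Lhx1 and 53.6% of Lhx5 UMIs, and Cluster 7 held 19.9% and 21.2%. The Lhx1 level in Cluster 7 was uneven, from 0 CPM in E1-2 and E2-3 to 31.4 in E2-2. Without S2-1 Cluster 7 held 15.9% of Lhx1 and 17.9% of Lhx5 UMIs, and without E2-2 15.5% and 19.2%.

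Ebf3 and Ebf2, 2 of the EBF genes, had log2 levels over the clusters with a Pearson's r of 0.693, and were apart in Cluster 25. Ebf3 had 770 ± 167 CPM in Cluster 14 and next 99.8 ± 47.4 in Cluster 6, and 55.9% of its UMIs were in Cluster 14. Ebf2 had 428 ± 147 CPM in Cluster 14 and 490 ± 231 in Cluster 25 (n = 7), which did not differ beyond the SD, and 202 ± 111 in Cluster 7. Ebf3 in Cluster 25 was at only 2.84 CPM. Cluster 7, with more nuclei, held 28.8% of Ebf2 UMIs, and Cluster 14 28.4%, with more in Cluster 7 in 5 of 11 embryos. In the IPCs of Cluster 6, Ebf2 was at 321 CPM in S2-1 and 277 in S2-2, against 36.1 to 125 in the other embryos of either treatment, so these 2 saline embryos set the saline mean there.

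Ndnf was at 95.8 ± 40.4 CPM in Cluster 14 (n = 11), and then at 38.0 ± 16.7 in Cluster 3 (interneuron precursors) and 36.2 ± 32.0 in Cluster 18 (Int 4). Cluster 3, being large, held 32.1% of Ndnf UMIs and Cluster 14 27.9%, but without S2-1 these shares were 25.4% and 35.8%, and Cluster 3 held more than Cluster 14 in 3 of 11 embryos. The Ndnf UMI was sparse even in Cluster 14, where 18.4% of nuclei had one.

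Within Cluster 14 the nuclei were not uniform. Of the 7 Cajal-Retzius genes among the 10 (all but Vldlr, Lrp8 and Dab1), 98 of the 1289 nuclei had a UMI of every one, 283 had 5, and 46 had none. In all, 853 nuclei had a Trp73 UMI and 436 had none, with similar depth (medians of 9674 and 9414.5 UMIs). The share with Trp73 varied among embryos, from 42.5% in S2-1 to 77.9% in S2-4 in saline, and from 36.0% in E2-1 to 86.0% in E1-1 in EtOH embryos. After thinning each nucleus to 2000 UMIs, so that Trp73 was seen in 650 of 1288 nuclei, Reln was found in 95.7% of nuclei with Trp73 and 63.8% of those without, and was more frequent with Trp73 in 11 of 11 embryos.

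Ebf3 and Ebf2 separated the nuclei in the same direction. Ebf3 was seen in 78.3% of thinned nuclei with Trp73 and 31.0% without, and Ebf2 in 48.9% and 22.7%, each in 11 of 11 embryos. Lhx1 followed in 10 of 11 embryos (29.5% and 13.5%) and Ndnf in 9 of 11 (13.5% and 5.64%). After thinning, Lhx5 hardly differed (18.5% and 17.9%, higher with Trp73 in 7 of 11 embryos), as did Vldlr (6.92% and 5.96%) and Lrp8 (22.8% and 24.9%). Thinning puts nuclei that lose their Trp73 UMI among those without. Before thinning, with 853 nuclei with Trp73 and 436 without, Lhx5 was found in 55.1% and 45.9%, higher with Trp73 in 9 of 11 embryos. Dab1 went the other way, with 41.8% in nuclei with Trp73 and 50.8% in those without, and was more frequent with Trp73 in 1 of 11 embryos. These are descriptions of nuclei that were clustered on the same genes. A list of 21 other Cajal-Retzius genes was more frequent with Trp73 for 19 genes, while all 8 interneuron markers were more frequent in nuclei without Trp73.

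**Figure D2:**
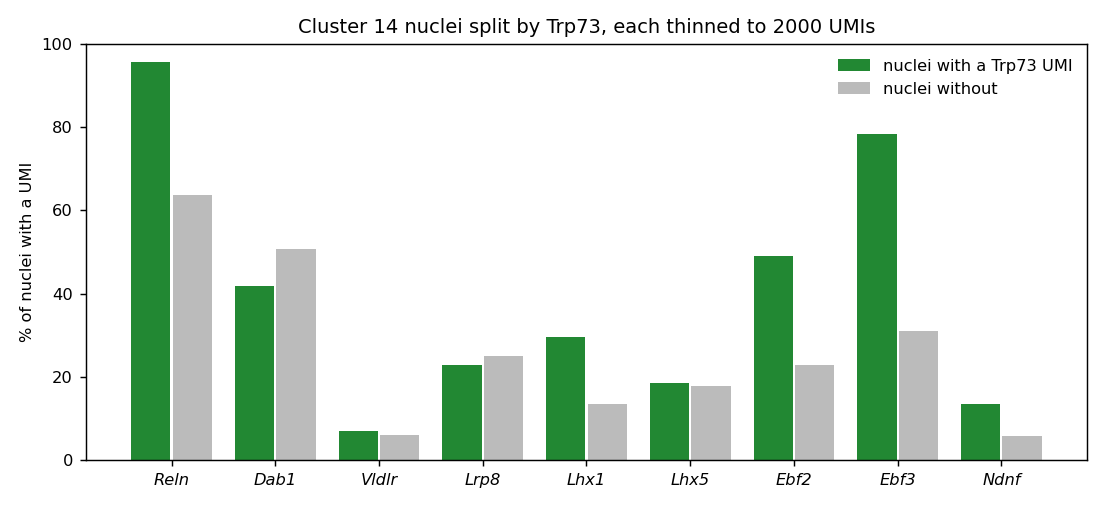
Bars give the percentage of Cluster 14 nuclei with a UMI of each gene after thinning to 2000 UMIs, in the 650 nuclei with a Trp73 UMI (green) and the 638 without (grey); the axis runs from 0 to 100%. Reln, Ebf3, Ebf2 and Lhx1 are more frequent in the nuclei with Trp73, Dab1 is less frequent, and Lhx5, Vldlr and Lrp8 are close.

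For each cluster, EtOH and saline embryos were compared with edgeR's quasi-likelihood test over all genes that passed a filter on low counts, and a gene was called when its adjusted p was below 0.05 and its level over 25% higher or over 20% lower. Reln was lower in EtOH embryos in 3 clusters, the early projection neurons of Cluster 9, the non-mitotic RGCs of Cluster 12 and the mitotic IPCs of Cluster 17. The other 9 genes were called in no cluster. Of the 10 genes in the 25 clusters, 137 pairs of a gene and a cluster were tested, and these 3 (2.19%) were called lower and 0 higher, against 0.792% of all 217253 gene and cluster pairs called, 0.35% lower and 0.442% higher. In Clusters 9, 12 and 17 the share of all genes called lower was 0.799%, 0.305% and 0.0352%. At an unadjusted p under 0.05 the members had 28 pairs (20.4%) and all genes 17.4%, a similar share. Reln, Dab1 and Lrp8 were tested in 25 clusters, Vldlr in 23, Ebf2 in 14, Ebf3 in 12, Ndnf in 5, Trp73 and Lhx5 in 3 each and Lhx1 in 2. The other pairs had too few UMIs to test.

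In Cluster 17 Reln was at 101, 112, 86.8, 123 and 62.0 CPM in the saline embryos S1-1, S1-2, S2-1, S2-2 and S2-4. In the EtOH embryos E1-1, E1-2 and E2-1 to E2-4 it was at 55.6, 30.7, 47.2, 41.4, 39.0 and 60.2 CPM. Every EtOH embryo was below every saline embryo, though E2-4 lay close to S2-4. The log2 fold change was -1.09 (SE 0.185, 95% interval -1.48 to -0.70, adjusted p = 0.0353).

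In Cluster 12 the saline embryos, in the same order, had 93.6, 68.0, 84.4, 124 and 37.0 CPM of Reln. The EtOH embryos had 26, 25.1, 21, 30.5, 22.3 and 30.2 CPM, from 10 to 25 UMIs each. The EtOH values were narrowly grouped and all below the lowest saline embryo, S2-4. The log2 fold change was -1.68 (SE 0.284, 95% interval -2.30 to -1.07, adjusted p = 0.0297).

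In Cluster 9, where Reln was more abundant, the saline embryos had 224, 248, 383, 405 and 241 CPM. The EtOH embryos had 178, 163, 160, 138, 167 and 200 CPM. The groups did not overlap, and S2-1 and S2-2 were well above the other saline embryos. The log2 fold change was -0.85 (SE 0.165, 95% interval -1.21 to -0.49, adjusted p = 0.0376).

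These calls were near the threshold. Leaving out 1 embryo at a time kept the direction each time but lost the Cluster 17 call without any embryo but S2-4 (adjusted p up to 0.133), the Cluster 12 call without any but S1-2, S2-2 or S2-4 (up to 0.0814) and the Cluster 9 call without any but S1-1 or S2-4 (up to 0.0848). With batch as a term the adjusted p in Cluster 12 was 0.0512 (log2 fold change -1.68). With counts summed per dam that in Cluster 17 was 0.0825 (-1.13), and without S2-1 and S2-2 it was 0.274 (-1.04). Over all gene and cluster pairs, the share called fell from 0.792% to 0.0316% without S2-1 and S2-2.

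**Figure D3:**
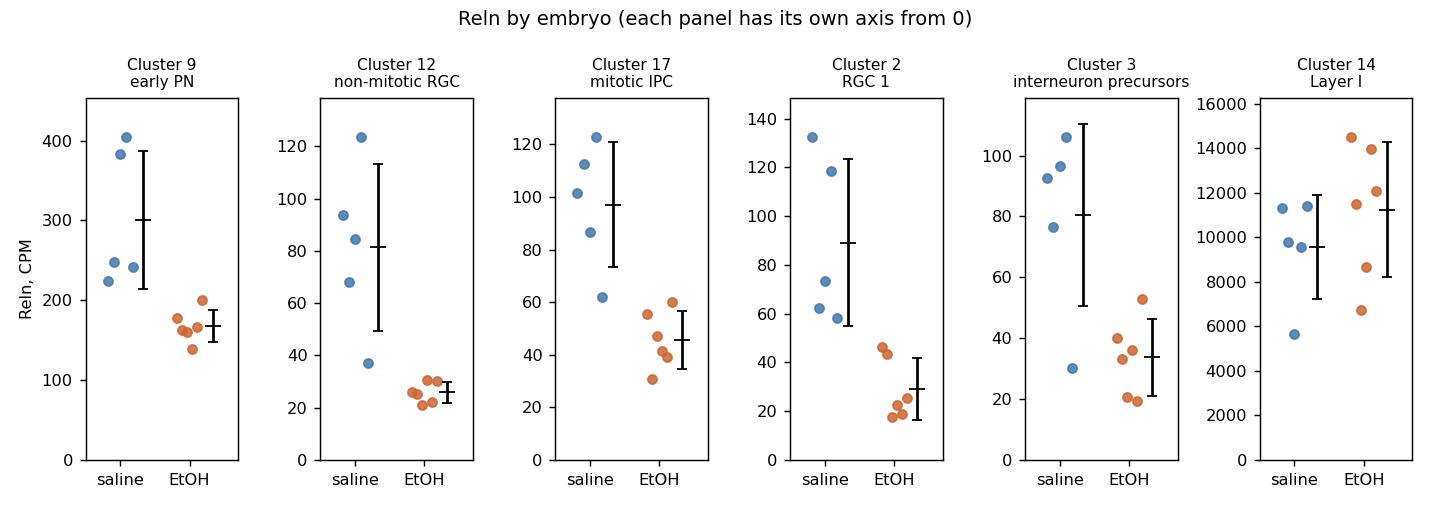
Each point is the Reln level (CPM, linear axis from 0, with a separate scale in each panel) of 1 embryo in the named cluster, saline in blue and EtOH in orange, with the mean ± SD beside the points. EtOH embryos lie below all saline embryos in Clusters 9, 12, 17 and 2, overlap them in Cluster 3, and in Cluster 14 reach as high as 14519 CPM.

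The 3 clusters in which Reln was called lower are progenitors and new neurons, in which it was at a small part of its Cluster 14 level. Several measures moved with it. The summed level of 21 other Cajal-Retzius genes, none of them at 0, was 999 to 1348 CPM in saline and 838 to 908 in EtOH embryos in Cluster 9, where all 11 tested had a negative estimate (median log2 fold change -0.81, 1 called). It was 366 to 791 and 214 to 500 CPM in Cluster 12 (10 of 12 tested negative, median -0.51, 0 called), and 829 to 1032 and 829 to 1055 in Cluster 17 (6 of 12, median -0.02, 0 called). Not all of the 21 genes were highest in Cluster 14. Slc17a6 was highest in Cluster 9 itself (541 CPM, against 331 in Cluster 14), so the sum there is not a level of Cajal-Retzius cells alone. The median log2 fold change of all genes was 0.009, 0.011 and 0.008 in these 3 clusters. The summed level of 8 radial glia markers, none of them at 0, was 96.6 to 162 CPM in saline and 67.0 to 111 in EtOH embryos in Cluster 9, 1199 to 1400 and 1297 to 1618 in Cluster 12, and 389 to 510 and 483 to 650 in Cluster 17. Of these markers Slc1a3, a glial glutamate transporter, was called lower in Cluster 9 (log2 fold change -1.005) and Hes1, a Notch target, was called higher in Cluster 12 (log2 fold change 0.56), and none was called in Cluster 17. Of the radial glia markers tested, 2 were lower and 2 higher in Cluster 9, 2 and 6 in Cluster 12, and 3 and 4 in Cluster 17. The summed level of 7 thalamic markers, among them Slc17a6 and Calb2 of the 21 genes above, was 688 to 844 and 626 to 694 CPM in Cluster 9. That of 7 projection neuron markers was 2521 to 2848 and 2653 to 2967 CPM in Cluster 9 (1 called lower). It was 348 to 523 and 276 to 436 in Cluster 12 (0 called), and 1053 to 1342 and 1009 to 1323 in Cluster 17 (1 called lower). That of 9 choroid plexus and hem markers was 28.4 to 162 and 16.9 to 40 CPM in Cluster 9, 32.5 to 152 and 16 to 51.2 in Cluster 12, and 21.4 to 92.5 and 10 to 34.8 in Cluster 17. That of 8 microglia, endothelium and pericyte markers was 11.6 to 21.7 and 9.18 to 24.7 CPM in Cluster 9. It was 27.1 to 61.6 and 31.4 to 78.0 in Cluster 12, and 13.6 to 35.3 and 21.2 to 44.7 in Cluster 17 (0 called in each). The summed level of 8 interneuron markers, none of them at 0, was 85.9 to 244 CPM in saline and 15.7 to 120 in EtOH embryos in Cluster 9, 147 to 420 and 77.8 to 298 in Cluster 12, and 185 to 351 and 77.9 to 490 in Cluster 17. In Cluster 9 the 3 of them that were tested (Gad1, Gad2 and Dlx6os1) were lower but not called. Nuclei with no UMI of the interneuron markers and none of Trp73, a choice made after the data were seen, were 33.6% to 45.7% of saline and 67.3% to 82.3% of EtOH nuclei in Clusters 2, 9, 12 and 17, so unlike shares of the nuclei remain and no test is given. In them Reln was at 296 ± 116 CPM in the 5 saline embryos and 175 ± 27.4 in the 6 EtOH embryos (mean ± SD) in Cluster 9, at 80.6 ± 32.8 and 23.2 ± 5.69 in Cluster 12, and at 75.9 ± 50.2 and 32.0 ± 9.68 in Cluster 17. The groups overlapped in Cluster 17 and in Cluster 2 (29.8 to 118 and 17.8 to 41.5 CPM) and not in Clusters 9 and 12. The part of the markers' cells in the change of Reln was not tested.

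As a measure of how far Trp73 accompanied Reln, for every 100 Reln UMIs, Cluster 14 had 5.78 Trp73 UMIs in saline and 4.78 in EtOH embryos. Cluster 9 had 0.729 and 0.229 (21 and 2 Trp73 UMIs), Cluster 12 3.69 and 8.16 (27 and 8), and Cluster 17 2.33 and 4.00 (16 and 7), so the ratio in Cluster 9 was below that of Cluster 14 and the ratio in Cluster 12 of EtOH embryos above it, from few UMIs. The part of free RNA in these calls was not tested. For depth, with nuclei thinned to 2000 UMIs, the Reln log2 fold change was -0.79 in Cluster 9 (adjusted p = 0.0108), -2.03 in Cluster 12 (0.0504) and -1.61 in Cluster 17 (0.0263).

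Against Cluster 14 of the same embryo, a ratio also chosen after the data were seen, Reln fell by 1.76 on the log2 scale in Cluster 12 and by 1.83 in Cluster 2 in EtOH relative to saline embryos (exact permutation test over 23 clusters, adjusted p = 0.0498 for both). In Clusters 9 and 17 it fell by 1.03 and 1.30 (adjusted p = 0.0622 for both). With labels exchanged only within batches no cluster had an adjusted p below 0.110. Only 210 such exchanges exist, so the smallest possible p is 0.00476, which Cluster 2 had. A single cluster at that p cannot pass the adjustment over 23 clusters.

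Over all 25 clusters Reln was lower in EtOH embryos in 18 and higher in 7, with a median log2 fold change of -0.44. Over all 217253 gene and cluster pairs 106513 were lower and 110740 higher, with a median of 0.006. The Reln estimates ran from -1.70 in Cluster 2 to 0.61 in Cluster 23, and 9 (36%) had an unadjusted p under 0.05, against 17.4% of all pairs. The Reln estimate was negative in 4 of 5 RGC clusters, 2 of 2 IPC clusters and 8 of 8 projection neuron clusters, and in 2 of 7 interneuron clusters, where it ran from -0.57 to 0.61 with no unadjusted p under 0.05. Whether the change differed between these classes was not tested.

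**Figure D4:**
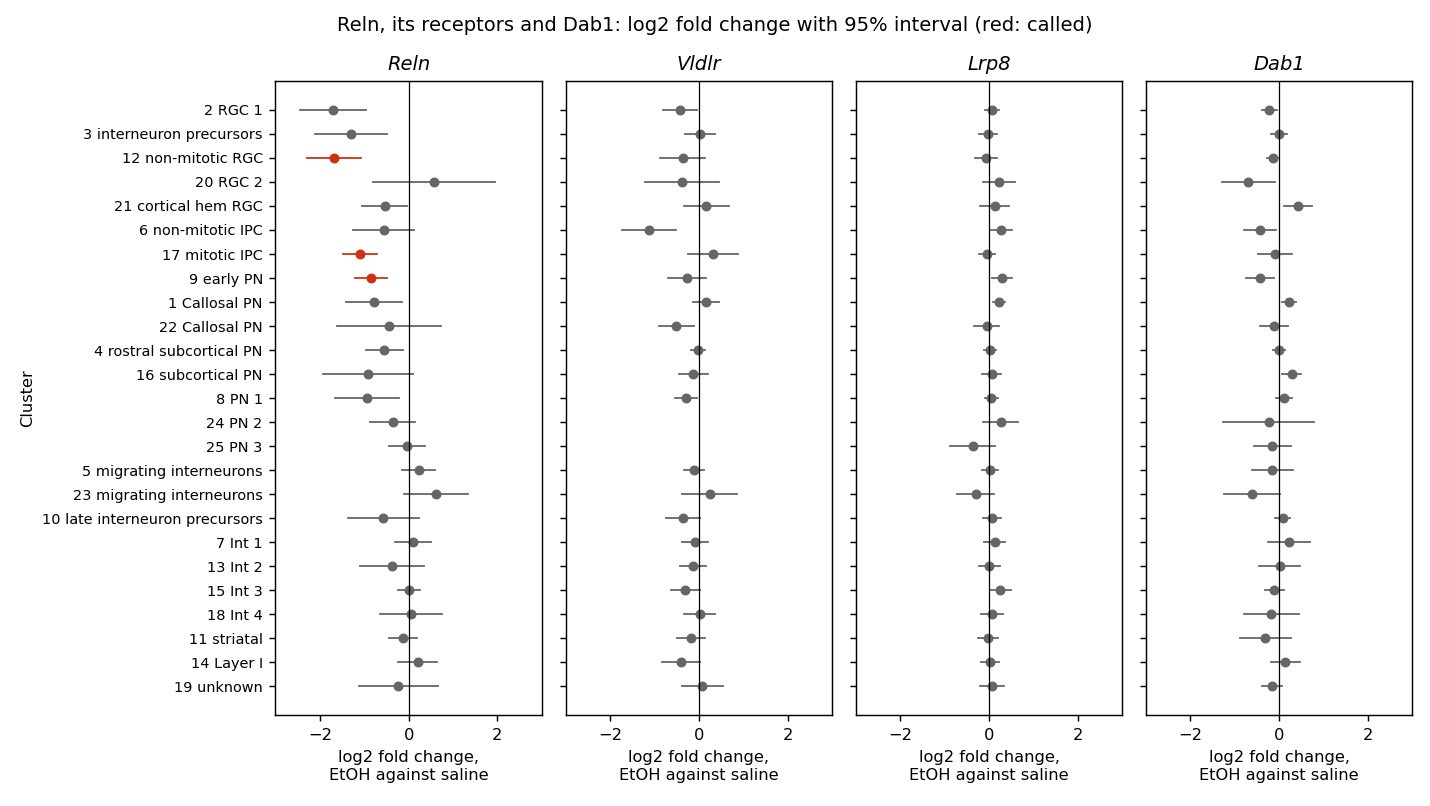
Points give edgeR's log2 fold change (EtOH against saline) and lines a 95% interval derived from the F statistic for Reln, Vldlr, Lrp8 and Dab1 in each cluster. Red marks a called pair and clusters without a point were not tested. The Reln estimates in progenitors other than Cluster 20 and in projection neurons lie left of 0 and 3 are red, and those of Cluster 14 and of the interneurons lie around 0.

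Reln was also among the uncalled pairs with a small p. In Cluster 2 (RGC 1) Reln was at 133, 62.2, 73.4, 119 and 58.3 CPM in saline and 46.5, 43.6, 17.5, 22.5, 19 and 25.6 in EtOH embryos. The groups did not overlap, with a log2 fold change of -1.70 (SE 0.333, adjusted p = 0.0520), and the pair was called in 6 of 20 alternatives. In Cluster 3 the groups overlapped, with 30.3 to 106 CPM in saline and 19.4 to 52.8 in EtOH embryos (log2 fold change -1.30, adjusted p = 0.0792). Other lists moved in both clusters. In Cluster 2 the summed level of 8 radial glia markers was 793 to 1118 CPM in saline and 1045 to 1364 in EtOH embryos, that of 8 interneuron markers 219 to 313 and 80.4 to 296, that of 8 microglia, endothelium and pericyte markers 26.7 to 52.2 and 49.7 to 73.6, and that of the 21 other Cajal-Retzius genes 601 to 839 and 522 to 814 (14 of 15 tested negative), with no gene of these 4 lists called. In Cluster 3 the same 4 lists were at 1042 to 1267 and 1225 to 1644, 283 to 665 and 302 to 540, 22.9 to 45.2 and 34.3 to 60.7, and 602 to 973 and 528 to 626 CPM (12 of 13 tested negative), and the radial glia genes Fabp7 and Hes1 were called higher there (log2 fold changes 0.59 and 0.60). No list had a gene at 0 in either cluster, and their part in the Reln values was not tested. Of the 8 member pairs whose groups did not overlap, 6 were lower in EtOH embryos. Among these, Lrp8 in Cluster 25 rested on E2-2 and E2-3 alone of the EtOH embryos, with 14 and 11 nuclei. It was at 99.6 and 111 CPM there, against 120 to 171 in saline embryos. Over all gene and cluster pairs 0.947% had every EtOH embryo below every saline embryo and 1.2% the opposite.

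Trp73 in the hem RGCs of Cluster 21 had the smallest p of the pairs that were not called. The saline embryos had 39.5, 63.6, 66.6, 56.2 and 50.1 CPM, and the EtOH embryos E1-1, E1-2, E2-2, E2-3 and E2-4 had 18.7, 11, 5.65, 38.9 and 3.27 CPM, from 1 to 9 UMIs each. E2-1 was left out because it had only 3 nuclei in the cluster, and its 5 Trp73 UMIs there, at 345 CPM, put it above every saline embryo. None of the 5 EtOH embryos tested reached the lowest saline embryo, although E2-3 and S1-1 were almost equal. The log2 fold change was -1.84 (SE 0.391, 95% interval -2.67 to -1.01) with an adjusted p of 0.0632, so it was not called in the main fit. It was called in 5 of 19 alternatives. In the same cluster the summed level of 8 radial glia markers was 425 to 610 CPM in saline and 611 to 787 in EtOH embryos, without overlap, and all 7 tested had a positive estimate (median log2 fold change 0.47, 0 called). That of 8 interneuron markers was 207 to 776 and 4.33 to 414 CPM, and both tested were lower but not called (Dlx6os1 at a log2 fold change of -1.82). The 21 other Cajal-Retzius genes summed to 3096 to 4553 and 2900 to 3794 CPM (10 of 13 tested negative, 0 called). None of the markers was at 0, and their part in the Trp73 values was not tested.

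None of the receptor or Dab1 pairs was called. Vldlr in Cluster 6, where its level is lowest, was at 7.66 to 23.8 CPM in saline and 3.94 to 8.63 in EtOH embryos (log2 fold change -1.12, 95% interval -1.73 to -0.50, adjusted p = 0.0675). Marker lists moved there too. Of those tested, 4 of 4 interneuron, 4 of 4 choroid plexus and hem and 15 of 17 other Cajal-Retzius genes were lower. Of 8 radial glia markers 6 were higher (231 to 289 CPM summed in saline and 290 to 347 in EtOH embryos). No gene of these lists was called, and their part in the Vldlr values was not tested. In the callosal projection neurons of Cluster 1, Lrp8 was at 139 to 193 CPM in saline and 195 to 220 in EtOH embryos, and Dab1 at 1530 to 1931 and 1987 to 2176. Neither pair of groups overlapped, but the log2 fold changes of 0.22 for both were small and not called (adjusted p = 0.0609 and 0.0875). Over the clusters, the median log2 fold change was 0.06 for Lrp8, -0.13 for Vldlr and -0.12 for Dab1. Ebf2 in Cluster 2 completed the 10 smallest p-values (5.25 to 16 CPM in saline, 1.15 to 6.86 in EtOH embryos, log2 fold change -0.999, adjusted p = 0.0920).

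In Cluster 14 itself none of the 10 genes was called and none had an unadjusted p under 0.05, where 0.244% of 9024 genes were called. Reln was at 11335, 9797, 5662, 9566 and 11399 CPM in the saline embryos and at 14519, 11504, 6724, 8653, 13987 and 12100 in the EtOH embryos. The groups overlapped, and S2-1, E2-1 and E2-2 had the lowest levels. They also had the smallest shares of Cluster 14 nuclei with a Trp73 UMI. These were 42.5%, 36.0% and 46.1%, against 68.0% to 86.0% in the other embryos. The part of these shares in the Reln levels was not tested. The log2 fold change was 0.20 (95% interval -0.24 to 0.64, adjusted p = 0.724), and this interval lay above the estimates in Clusters 9, 12 and 17.

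Trp73, Lhx1 and Lhx5 were close in the treatments. Trp73 was at 528, 526, 288, 720 and 636 CPM in saline and at 691, 625, 253, 406, 714 and 573 in EtOH embryos, with S2-1 and E2-1 lowest, and its log2 fold change was -0.03 (95% interval -0.64 to 0.58, adjusted p = 0.986). Lhx1 was at 135, 163, 95.4, 164 and 131 CPM in saline and at 112, 126, 85.8, 125, 152 and 164 in EtOH embryos (log2 fold change -0.15, 95% interval -0.50 to 0.20). Lhx5 was at 107, 117, 107, 94.2 and 93.7 CPM in saline and at 86.4, 84.1, 88, 105, 106 and 110 in EtOH embryos (log2 fold change -0.14, 95% interval -0.38 to 0.10).

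Ebf3 was at 766, 719, 584, 968 and 738 CPM in saline and at 792, 835, 495, 616, 1045 and 913 in EtOH embryos, with a log2 fold change of 0.01 (95% interval -0.35 to 0.37). Ebf2 was at 323, 243, 387, 777 and 383 CPM in saline and at 427, 461, 284, 454, 577 and 392 in EtOH embryos. S2-2 stood alone at the top, and the log2 fold change was -0.005 (95% interval -0.60 to 0.59) with it and 0.42 (adjusted p = 0.551) without S2-1 and S2-2. Ndnf was at 99.7, 119, 13.2, 35.8 and 107 CPM in saline and at 112, 128, 92.4, 74.0, 146 and 126 in EtOH embryos. Here S2-1 and S2-2 were the lowest of all, and the log2 fold change of 0.57 (95% interval -0.52 to 1.67, adjusted p = 0.661) was 0.006 without them.

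The receptors and the adaptor were measured in the same nuclei. Vldlr was at 41.5, 42.4, 33.2, 36.2 and 33.8 CPM in saline and at 11.2, 39.0, 27.5, 34.6, 19.2 and 33.5 in EtOH embryos, with E1-1, E2-1 and E2-3 below the lowest saline embryo and the other 3 within the saline range (log2 fold change -0.40, 95% interval -0.83 to 0.02, adjusted p = 0.390). Lrp8 was at 132, 129, 130, 131 and 182 CPM in saline and at 153, 141, 151, 146, 129 and 157 in EtOH embryos (log2 fold change 0.02, 95% interval -0.18 to 0.23). Dab1 was at 714, 829, 634, 532 and 647 CPM in saline and at 574, 575, 859, 719, 829 and 982 in EtOH embryos (log2 fold change 0.14, 95% interval -0.20 to 0.47). None of these differences was larger than the spread between embryos.

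**Figure D5:**
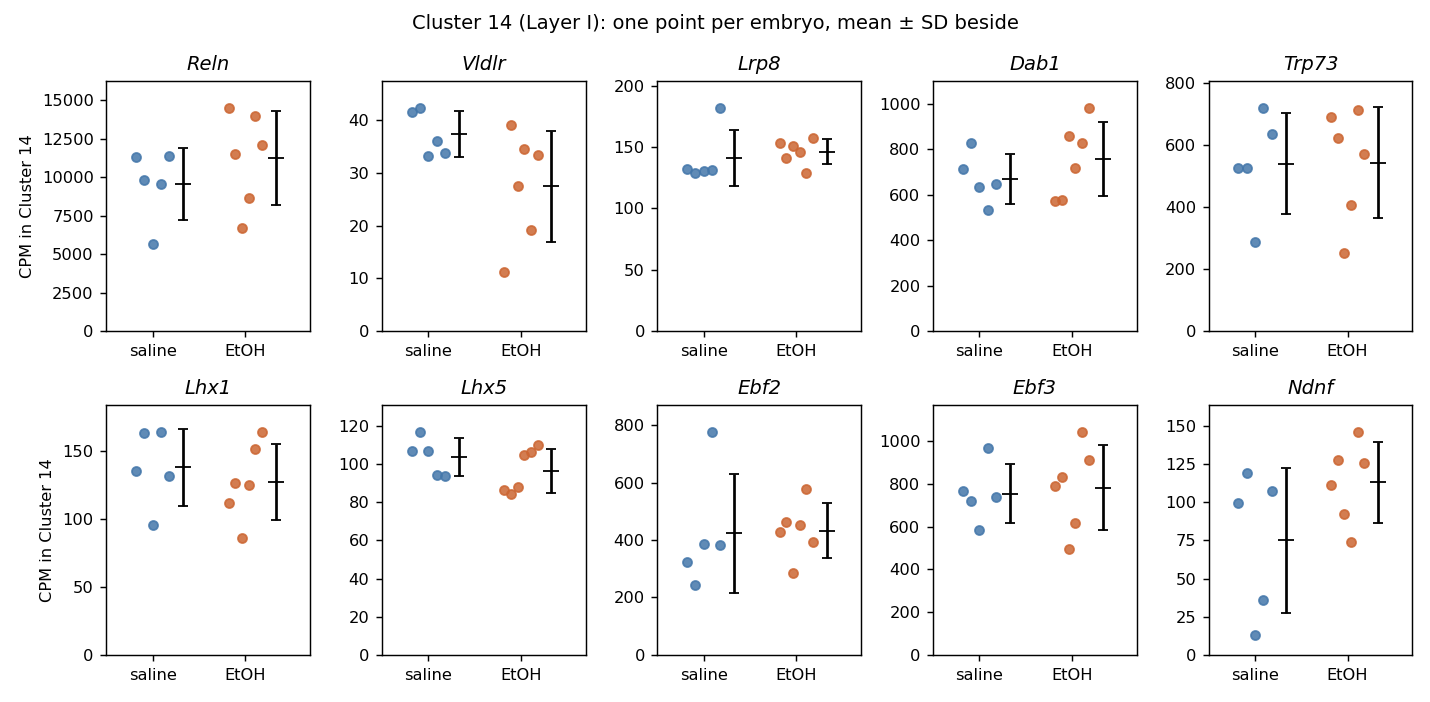
Each panel gives the CPM of 1 gene in Cluster 14, with 1 point per embryo (saline blue, EtOH orange), the mean ± SD beside the points and a linear axis from 0. The groups overlap in all 10 panels; S2-1 is lowest of the saline embryos for Reln, Vldlr, Trp73, Lhx1, Ebf3 and Ndnf, and E2-1 lowest of the EtOH embryos for Reln, Trp73, Lhx1, Ebf2 and Ebf3.

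Counts summed over all nuclei of an embryo join the number of nuclei of each type and the RNA per nucleus, which cannot be told apart there. None of the 10 genes was called or had an unadjusted p under 0.05, against 12.1% of 18138 genes called. Reln was at 507, 480, 451, 836 and 438 CPM in the saline embryos and at 591, 633, 347, 419, 638 and 564 in the EtOH embryos. S2-2, which had the most Cluster 14 nuclei, was above all others, and the log2 fold change was -0.10 (95% interval -0.53 to 0.34, adjusted p = 0.752). Trp73 was at 15.6, 16.8, 13.4, 49.3 and 17.7 CPM in saline and 20.3, 25.4, 9.10, 12.8, 25.4 and 18.4 in EtOH embryos, again with S2-2 alone at the top (log2 fold change -0.34, adjusted p = 0.511).

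The receptors and the adaptor were measured in the same sums. Vldlr was at 39.1, 38.1, 41.3, 33.9 and 36.2 CPM in saline and at 32.1, 37.9, 38.6, 37.4, 36.5 and 35.7 in EtOH embryos (log2 fold change -0.13, 95% interval -0.30 to 0.04). Lrp8 was at 167, 167, 142, 154 and 189 CPM in saline and at 190, 187, 175, 175, 190 and 182 in EtOH embryos (log2 fold change 0.09, 95% interval -0.06 to 0.23). Dab1 was at 1146, 1143, 928, 1382 and 1130 CPM in saline and at 1191, 1486, 1168, 1127, 1259 and 1172 in EtOH embryos (log2 fold change 0.04, 95% interval -0.18 to 0.25). In each case the groups overlapped. The LIM homeobox genes were among the sparsest. Lhx1 was at 4.26, 6.23, 9.35, 11 and 3.78 CPM in saline and at 3.69, 5.03, 4.92, 11.5, 5.23 and 6.31 in EtOH embryos (log2 fold change -0.22, 95% interval -0.94 to 0.51). Lhx5 was at 3.76, 5.82, 11.9, 7.77 and 4.02 CPM in saline and at 3.05, 3.49, 4.5, 8.26, 3.75 and 4.84 in EtOH embryos (log2 fold change -0.55, 95% interval -1.28 to 0.17). E2-2 was the highest EtOH embryo for both. Ebf2 was at 29.2, 33, 73.7, 118 and 30.4 CPM in saline and at 37.9, 43.7, 22, 67.9, 46.1 and 43.1 in EtOH embryos (log2 fold change -0.44, 95% interval -1.28 to 0.40). Ebf3 was at 31.4, 38, 50.7, 80.8 and 28.5 CPM in saline and at 29.1, 37.7, 26.9, 66.3, 45.7 and 40.6 in EtOH embryos (log2 fold change -0.22, 95% interval -0.84 to 0.41). Ndnf was at 7.05, 8.21, 16, 7.29 and 7.14 CPM in saline and at 8.59, 9.38, 9.32, 8.89, 8.01 and 8.91 in EtOH embryos (log2 fold change -0.12, 95% interval -0.58 to 0.33). S2-2 was the highest saline embryo for Ebf2 and Ebf3 and S2-1 for Ndnf, and the groups overlapped for all of these genes. Several estimates changed sign without S2-1 and S2-2, the embryos left out after the data were seen, when the log2 fold change was 0.40 for Ebf2, 0.23 for Ebf3, 0.29 for Lhx1, 0.15 for Ndnf, 0.04 for Trp73, 0.06 for Reln and -0.02 for Lrp8. That of Lhx5 kept its sign at -0.02, and none of the genes was called.

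In the sum of all clusters except Cluster 14, where 12.2% of 18023 genes were called, Trp73 alone was called. It was at 2.34 to 7.22 CPM in saline and 1.01 to 2.77 in EtOH embryos, so the groups overlapped, with a log2 fold change of -1.02 (SE 0.313, adjusted p = 0.0390). The call was lost without 9 of the 11 embryos in turn and in 3 of 8 other alternatives. Among these, without S2-1 and S2-2 the log2 fold change was -0.61 (adjusted p = 0.131). Reln there was at a log2 fold change of -0.33 (adjusted p = 0.0789), and was called in 2 of 19 alternatives.

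Percentages of nuclei with a UMI were compared after thinning to 2000 UMIs. None of 240 member and cluster pairs passed Benjamini-Hochberg adjustment (lowest adjusted p = 0.130), and 40 (16.7%) had an unadjusted p under 0.05 (two-sided exact permutation tests). These tests were run on the 10 genes alone, so no share over all genes stands beside that count. Their smallest possible p is 0.002165, too large for a single pair to pass the adjustment over 240 pairs. Reln in Cluster 9 was seen in 27.2% ± 6.62 of nuclei in saline and 15.7% ± 3.14 in EtOH embryos. In Cluster 12 it was seen in 14.0% ± 6.27 and 4.12% ± 1.94, in Cluster 17 in 15.2% ± 4.28 and 5.41% ± 3.53, and in Cluster 3 in 14.9% ± 6.05 and 3.71% ± 0.915. In Cluster 14 it was seen in 82.6% ± 8.0 and 77.2% ± 16.4, and Trp73 in 51.6% ± 10.8 and 50.6% ± 16.6. Without thinning, the Reln shares in Cluster 9 were 52.5% and 22.8%, a wider gap in nuclei of unequal depth.

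The rest of the pathway was described with a list of 40 genes for kinases, adaptors, adhesion molecules, proteases and other partners of reelin signaling. Of 862 pairs tested, 2 were called lower and 2 higher (0.464%, against 0.792% of all gene and cluster pairs), and 143 had an unadjusted p under 0.05 (16.6%, against 17.4%). All 4 calls were lost without S2-1 and S2-2, when only 0.0316% of all gene and cluster pairs were called. Nectin3, an adhesion molecule that joins migrating neurons and Cajal-Retzius cells, was called lower in Cluster 10 (71.5 to 96.9 CPM in saline, 48.8 to 62.5 in EtOH embryos, log2 fold change -0.68, adjusted p = 0.0302) and Cluster 1 (-0.38, 0.0484). Lrpap1, a chaperone of the receptor family, was called higher in Cluster 1 (31.2 to 59.2 and 57.0 to 76.4 CPM, log2 fold change 0.58, adjusted p = 0.0256). Mapt, the microtubule-associated protein tau, was called higher in Cluster 3 (64.4 to 78.8 and 86.9 to 123 CPM, 0.49, 0.0319). In whole-embryo sums Nectin3 was again called lower (-0.43) and Lrpap1 higher (0.50), 5.0% of the list against 12.1% of all genes, and the median log2 fold change of the 40 genes over the clusters was -0.03.

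Among 21 further genes known from Cajal-Retzius cells, 6 of 281 pairs were called, all lower (2.14%, against 0.35% of all pairs called lower), 68 had an unadjusted p under 0.05 (24.2%, against 17.4%), and the median log2 fold change was -0.24. Without S2-1 and S2-2, when 0.0316% of all pairs were called, the call of Ebf1 in Cluster 9 was kept and the other 5 were lost. Ebf1, the third EBF gene, was called in 3 clusters. In Cluster 9 it was at 148 to 244 CPM in saline and 93.6 to 135 in EtOH embryos (log2 fold change -0.85, adjusted p = 0.0116), in Cluster 5 at 86.3 to 153 and 11 to 59.97 (-1.53, 0.0358), and in Cluster 1 at 53.7 to 162 and 17.4 to 62.0 (-1.41, 0.0493). Its highest level was in striatal Cluster 11 at 12463 CPM, against 969 in Cluster 14. Slc17a6, a vesicular glutamate transporter, was called in the migrating interneurons of Cluster 5 (42.3 to 53.3 and 18 to 33.9 CPM, -0.85, 0.0105). Cacna2d2, a calcium channel subunit, was called in Cluster 1 (5.76 to 11.8 and 2.17 to 4.80 CPM, -1.05, 0.0397), and Zic2, a zinc finger gene of the midline, in Cluster 8 (6.52 to 10.0 and 0 to 5.63 CPM, -1.22, 0.0460). Each of these calls was in a cluster where the gene was well below its highest level among clusters. Marker lists also moved in Cluster 1. Of the markers tested there, 4 of 4 interneuron, 3 of 3 choroid plexus and hem, 5 of 5 thalamic and 5 of 5 radial glia markers were lower, with 0 called. Of 7 projection neuron markers 5 were lower (1 called), and 2 of 2 microglia, endothelium and pericyte markers were higher. Their part in the Cluster 1 calls was not tested. In Cluster 14, 0 of 37 genes of the first list and 0 of 19 of the second were called, with 5 and 3 at an unadjusted p under 0.05. In whole-embryo sums 4 of the 21 genes were called (19% against 12.1% of all genes), Zic5 (-0.94), Zic2 (-0.89) and Gmnc (-2.02) lower and Calb2 (0.67) higher. Gmnc and Zic5 were highest in hem Cluster 21, where S2-2 had 206 nuclei and the other saline embryos 45 to 90. In the same sums 9 choroid plexus and hem markers were at 119 to 567 CPM in saline and 35.5 to 179 in EtOH embryos (8 of 9 lower, 0 called). Their part in these calls was not tested.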

How the data were processed

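Nuclei of the cortices of 11 mouse embryos were profiled with the 10x Genomics 3′ kit (version 3.1 chemistry per the labels), 1 library per embryo. Cell Ranger, whose version is not given in the sources used here, was run by the authors on the mm10 reference. They filtered nuclei and genes, left out non-neuronal, thalamic and low-transcript clusters, and deposited raw UMI counts of 23513 genes in 275 tables, 1 per embryo and cluster, covering 50550 nuclei. These deposited counts were used as they are. No doublet caller is named and none was run here. Cluster names, and their classes as RGC, IPC, PN and interneurons, are the authors'.

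Counts were summed per embryo and cluster with Python 3.11.15, NumPy 2.4.6 and pandas 2.3.3, and embryos with fewer than 10 nuclei in a cluster (9 of the pairs) were left out of that cluster. All genes were tested with edgeR 4.0.16 in R 4.3.3 (TMM, filterByExpr, glmQLFit with the robust option, glmQLFTest, no covariate), with Benjamini-Hochberg adjustment over all genes of a cluster. Shares of nuclei were compared by two-sided exact permutation tests (SciPy 1.17.1) after thinning each nucleus to 2000 UMIs, which left out 177 saline and 210 EtOH nuclei. The edgeR script was tested on simulated counts. Alternatives used RLE factors, DESeq2 1.42.0, voom in limma 3.58.1 with dams as blocks, no filter, a batch term, sums per dam, at least 20 nuclei, thinning, and each embryo left out.

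The text gives all 10 genes, the 10 pairs of a gene and a cluster with the smallest p, every member in Cluster 14 and in whole-embryo sums, called genes of the lists, and the 5 genes most like Reln, Trp73 and Dab1 among genes with a mean of at least 20 CPM in a cluster. The members, the lists and the tests were chosen with earlier results of these data known. Positions came from the GRCm38 annotation and promoters from RefSeq, and figures were drawn with matplotlib 3.10.9. Counting error is part of the SD between embryos.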

Additional observations from a re-analysis of the deposited data

Results flagged for a closer look

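In 62 checks of a group of 5 or 6 embryos for a single value far from the others (Dixon's test at 95%, which chance alone passes in about 1 of 20 groups), 8 passed. In Cluster 14, S2-4 had 182 CPM of Lrp8 against 129 to 132 in the other saline embryos, and S2-2 had 777 CPM of Ebf2 against 243 to 387. In whole-embryo sums S2-2 had 836 CPM of Reln against 438 to 507 in the other saline embryos and 49.3 CPM of Trp73 against 13.4 to 17.7, and it was also the embryo with the most Cluster 14 nuclei. S2-1 had 16 CPM of Ndnf against 7.05 to 8.21 in the other saline embryos. Among EtOH embryos, E2-2 had 11.5 CPM of Lhx1 against 3.69 to 6.31 and 8.26 CPM of Lhx5 against 3.05 to 4.84, and E1-2 had 1486 CPM of Dab1 against 1127 to 1259.

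The change of Reln relative to Cluster 14 of the same embryo was also listed for 2 clusters, with a log2 difference of -1.83 in Cluster 2 and of -1.76 in Cluster 12 between EtOH and saline embryos (exact permutation test, adjusted p = 0.0498 for both). This ratio was chosen after the Reln levels had been seen, so its p-values are no independent test of them. With labels exchanged within batches the adjusted p was 0.110 for both. Only 210 such exchanges exist, and the smallest possible p is 0.00476. In Cluster 14 the Reln estimate was above 0 and in these clusters of radial glial cells below 0.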

How the results depend on the processing

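No paired analysis was possible because sample numbers restart within each dam and mark no shared animal. The 3 calls among the 10 genes became 4 with RLE factors (0.810% of all gene and cluster pairs called), 3 with batch as a term (0.419%) or with at least 20 nuclei (0.792%), 2 after thinning (0.635%), and, chosen after seeing the data, 2 without S2-1 and S2-2 (0.0316%). They became 22 of 250 pairs with no filter on low counts (2.07%), 7 of 174 with counts summed per dam (0.721%), 5 of 133 with limma voom (3.05%) and 10 of 137 with DESeq2 (2.60%), with all calls of the last 3 lower in EtOH embryos, and each of these 4 called Reln in Clusters 9 and 12. Leaving out 1 embryo at a time gave 0 to 15, the 15 without S2-4, when 8.78% of all pairs were called against 0.0408% to 0.345% without any other embryo. Over all alternatives the Reln log2 fold change ran from -0.94 to -0.56 in Cluster 9, the -0.56 without S2-1 and S2-2, from -1.61 to -1.01 in Cluster 17, where the call was lost with sums per dam (adjusted p = 0.0825), and from -2.03 to -1.43 in Cluster 12, where it was lost with batch as a term (0.0512) and after thinning (0.0504). Some uncalled pairs became called. This held for Reln in Cluster 2 in 6 of 20 alternatives and in Cluster 3 in 3 of 20. It held for Trp73 in Cluster 21 in 5 of 19, Vldlr in Cluster 6 in 3 of 19 and Ebf2 in Cluster 2 in 2 of 19. In whole-embryo sums 0 members were called under each alternative and each embryo left out. With Cluster 14 taken out 1 (Trp73) was called in the main fit.

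In the same fits the 10 calls of the lists (0.875% of their pairs) became 77 with no filter (5.06%), 17 per dam (1.31%), 22 with voom (1.99%), 37 with DESeq2 (3.24%), 6 after thinning (0.762%), 1 without S2-1 and S2-2 (0.0873%), and 2 to 93 with 1 embryo left out, the 93 (8.09%) without S2-4. The cause was not tested. The 0 percentages with an adjusted p under 0.05 became 45 without thinning. The difference in the percentage of nuclei in Cluster 14 ran from -0.676 to 0.233 with 1 embryo left out. For members in Cluster 14 and whole-embryo sums, 36 of 389 uncalled estimates changed sign and 0 became called. Low counts left Trp73, Lhx1, Lhx5 and Ndnf untested in most clusters.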

Other observations

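In the cortical hem RGCs of Cluster 21, 81 of the nuclei had a Trp73 UMI and 546 had none. Gmnc, a geminin family gene, was found in 82.7% of the nuclei with Trp73 and in 18.1% of those without, whereas Reln was found in 51.9% and 62.5% and Lhx5 in 4.94% and 5.31%. The nuclei with Trp73 were deeper (medians of 9165 and 7437.5 UMIs). After thinning to 2000 UMIs the Gmnc shares were 65.7% and 14.9%, from 35 and 585 nuclei. Gmnc was more frequent with Trp73 in 5 of 5 embryos compared before thinning, and Reln in 2 of 5.

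In the interneurons of Cluster 7, 333 nuclei had an Lhx5 UMI and 3211 had none, and Lhx1 was found in 22.5% and 5.23% of them, in the same direction in 8 of 8 embryos compared. Thinning to 2000 UMIs left 93 nuclei with an Lhx5 UMI and 3426 without. The Lhx1 shares were then 8.60% and 2.66% (higher with Lhx5 in 4 of 6 embryos). Ebf2 was found in 1.08% of thinned nuclei with Lhx5 and 6.86% of those without, the first share from very few nuclei. Before thinning the Ebf2 shares were close, and Ebf2 was more frequent with Lhx5 in 2 of 8 embryos. In the IPCs of Cluster 6, nuclei with an Ebf2 UMI had Ebf3 more often, in 22.6% against 12% of thinned nuclei and in 10 of 11 embryos.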
